A study of Bos taurus with 6 samples.

Results

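The ETS transcription factors described here are the 10 genes ETV1, ETV4, ETV5, ETV6, ELK1, ELK3, ELK4, ETS1, ETS2 and ERG in cultured bovine granulosa cells. They were chosen by their symbols in the deposited expression table, and each of them is read by a single transcript cluster, a group of probes for 1 gene, among 24415 clusters on the array. Primary granulosa cells, aspirated from small and medium follicles, frozen and thawed, grew for 4 d in serum-free medium with FSH, IGF1 and androstenedione. On day 2 the cultures were exposed for 2 h to 50 μM PD98059, an inhibitor of the kinase MEK, or to its solvent DMSO as the vehicle control. The medium was then exchanged, in full according to the methods and only in part according to the labels, and 3 PD98059-treated and 3 DMSO-treated cultures were measured on bovine gene arrays. The sources used here do not say whether the 3 cultures of a treatment came from separate cell preparations. The p-values therefore measure only how these cultures scattered, which may be technical.

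ETS proteins share a DNA-binding domain that recognizes a GGAA core, and several of them are end points of the RAS, RAF, MEK and ERK chain. ERK phosphorylates ELK1, ELK3, ELK4, ETS1 and ETS2 and so changes their activity, whereas in mouse and human cells the genes ETV1, ETV4 and ETV5 are themselves switched on when growth factors activate ERK. In the preovulatory follicle the LH surge activates ERK in granulosa cells through EGF-like growth factors. The arrays measured the transcripts only, so the phosphorylation of ETS proteins is not part of these data. The comparison asks which ETS transcripts differed between inhibitor-treated and vehicle-treated cells at the end of the culture. ERK activity is not part of these data either, and the paper raises the concern of off-target effects of the inhibitor. Whether a difference came through ERK was therefore not tested.

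The values are log2 levels made by the authors with the Robust Multichip Average (RMA) method, and they were compared without further scaling. The median log2 level lay between 4.69 and 4.74 in the PD98059 arrays and between 4.68 and 4.70 in the DMSO arrays. A log2 level of 3.71, below which 95% of 363 olfactory receptor clusters lay, served as an approximate background level, since these are chiefly genes of the olfactory epithelium. All 12 of 12 markers of granulosa cells, among them FSHR, FOXL2 and INHA, had mean levels above it. So did all 12 fibroblast and smooth muscle markers, 4 of 6 theca, 6 of 10 leukocyte and 3 of 9 endothelial markers. This level alone therefore does not single out the labelled cell type. A cluster passed the threshold when limma, a moderated linear model, gave an adjusted p under 0.05 (Benjamini-Hochberg over all 24415 clusters) together with a change of more than 1.4-fold. A log2 fold change is the PD98059 mean minus the DMSO mean throughout, and tests were two-sided.

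PD98059 lowered the transcripts of 3 of the 10 ETS factors, ETV1, ETV5 and ELK3, and raised none. The log2 fold change was −1.4 for ETV1, −1.16 for ETV5 and −0.72 for ELK3, and it lay between −0.59 and −0.05 for the other 7, which did not pass. Over all clusters 2.69% passed, 1.78% on the lower side and 0.909% on the higher side, and among clusters above the background level 2.72% passed on the lower side. With no fold limit the same 3 members passed, against 4.55% of all clusters. The members were chosen with earlier results of these data known, so these shares are a description only. The median log2 fold change was −0.17 over the 10 members, of which 3 were near background, and 0.01 over all clusters. In 6 of the 10 members every PD98059 array lay under every DMSO array, a separation found in 13.0% of all clusters, and in none of the members did every PD98059 array lie above the DMSO arrays, as in 12.6% of all clusters. Since the arrays measure bulk RNA, fewer cells with a transcript and less of it per cell cannot be told apart.

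**Figure D1:**
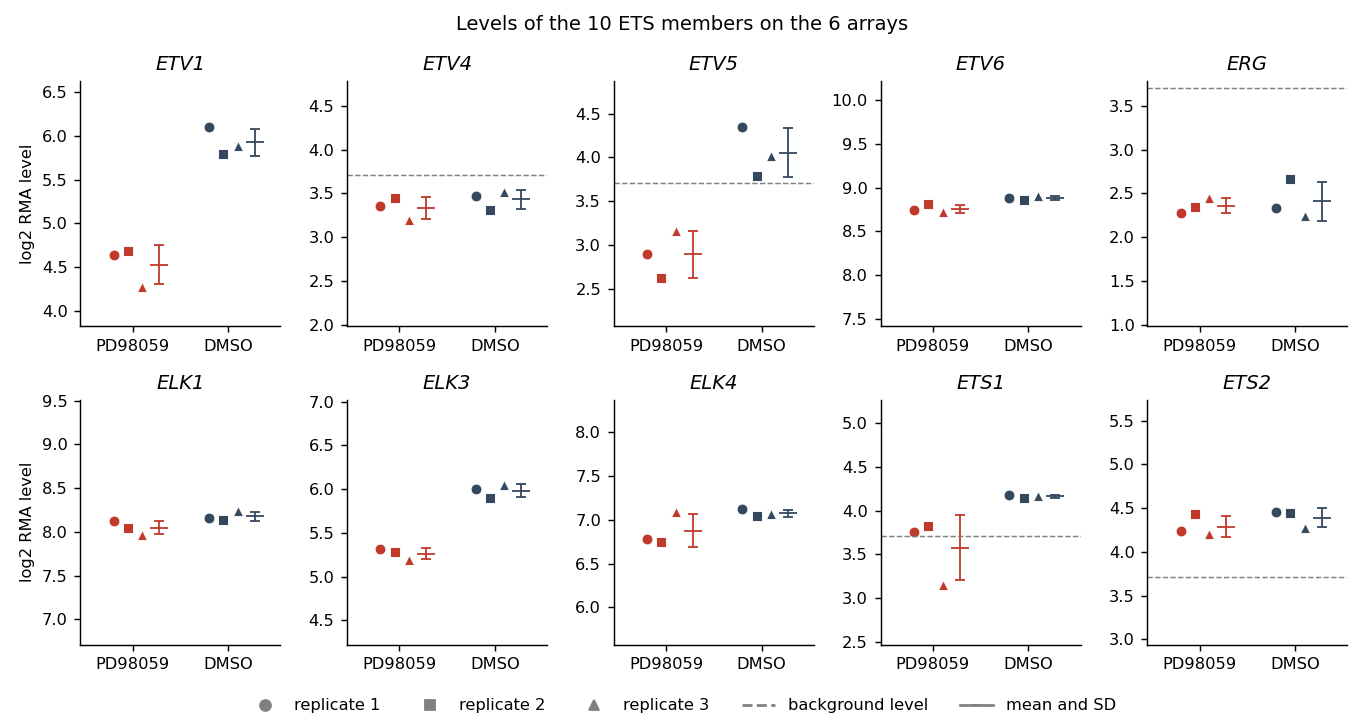
Log2 RMA level (vertical axes, each spanning the same 2.8 log2 units around the gene's mean) of the 10 ETS members in the 3 PD98059 and 3 DMSO arrays, with a symbol per replicate, the mean and SD beside them, and the background level of 3.71 as a dashed line where it is in range. ETV1, ETV5 and ELK3 show a gap between the treatments, ETS1 shows a low PD98059 replicate 3, and in the others the treatments lie close together.

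ETV1, ETV4 and ETV5 form the PEA3 group, activators that in the mouse embryo are induced wherever FGF acts through ERK. ETV1 stood at 4.64, 4.68 and 4.27 in the PD98059 arrays, against 6.10, 5.79 and 5.89 in the DMSO arrays. The arrays of the treatments did not overlap, and PD98059 replicate 3 was the lowest. The mean was 4.53 ± 0.23 in PD98059-treated cells and 5.93 ± 0.16 in DMSO-treated cells (SD, n = 3 each), a 2.63-fold lower level with PD98059 (standard error of the log2 fold change 0.14, adjusted p = 0.00477 from limma). ETV1 ranked 15 of 24415 when all clusters were ordered from the largest fall to the largest rise. The call held in each of the 17 alternative settings, with a log2 fold change from −1.47 to −1.27.

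ETV5 stood at 2.89, 2.62 and 3.16 in the PD98059 arrays, against 4.35, 3.79 and 4.02 in the DMSO arrays. All 3 DMSO arrays were above the background level and none of the PD98059 arrays was, so the treated level is known only as not above background. Measured as deposited, the log2 fold change was −1.16 (standard error 0.18, adjusted p = 0.0199), and ETV5 ranked 45 of 24415 in the order of falls. With the background level in place of the measured treated values, the group means give a fall of at least 1.27-fold, from a DMSO mean of 4.05. This bound lies under the 1.4-fold limit, so the call rests on treated values below background. The adjusted p rose to 0.0684 without PD98059 replicate 1, 0.064 without PD98059 replicate 2, 0.0662 without DMSO replicate 1 and 0.077 without DMSO replicate 3, with log2 fold changes from −1.18 to −1.01 in these fits, and the unmoderated test gave 0.1. With a filter at the background level or at the median level ETV5 was not tested, because its mean over the 6 arrays lay under both.

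ETV4, the other PEA3 gene, stood at 3.36, 3.45 and 3.20 in the PD98059 arrays and at 3.47, 3.31 and 3.52 in the DMSO arrays. All 6 arrays were near background and the treatments overlapped, with a log2 fold change of −0.10 (95% interval −0.32 to 0.13, adjusted p = 0.638). From so low a level in the DMSO cultures a further fall was not detectable. With PD98059, ETV1 minus ETV4 shifted by −1.3 and ETV5 minus ETV4 by −1.07 (exact permutation test, p = 0.1 for each). An exact p of 0.1 is the minimum for groups of 3. ETV1 minus ETV5 shifted by −0.23 (exact permutation test, p = 0.7). ETV4 was near background throughout and ETV5 was not above it in the treated arrays. These shifts therefore do not rank the 3 genes by size of change.

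ELK1, ELK3 and ELK4 are the ternary complex factors, which bind DNA together with SRF at the promoters of genes such as EGR1 and FOS. ELK3, which represses transcription until ERK phosphorylates it, stood at 5.32, 5.28 and 5.19 in the PD98059 arrays, against 6.0, 5.90 and 6.05 in the DMSO arrays. These arrays did not overlap, and the SD within a treatment was 0.07 with PD98059 and 0.08 with DMSO. The level was 1.65-fold lower with PD98059, −0.72 on the log2 scale (standard error 0.07, adjusted p = 0.00527), and ELK3 ranked 199 of 24415 in the order of falls. It passed in each of the fits that leave out 1 array, between −0.76 and −0.68.

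ELK1, the classical ERK substrate of the group, stood at 8.12, 8.05 and 7.97 in the PD98059 arrays, against 8.16, 8.14 and 8.24 in the DMSO arrays. These values did not overlap, but the step was small, −0.13 (95% interval −0.30 to 0.04, adjusted p = 0.372). ELK4 stood at 6.78, 6.75 and 7.09 in the PD98059 arrays and at 7.12, 7.04 and 7.07 in the DMSO arrays. Its PD98059 replicate 3 lay among the DMSO arrays, and the log2 fold change was −0.20 (95% interval −0.45 to 0.04, adjusted p = 0.346). ELK3 minus ELK1 was −2.80, −2.77 and −2.78 with PD98059, against −2.16, −2.24 and −2.19 with DMSO, a shift of −0.59, and ELK3 minus ELK4 shifted by −0.52 (exact permutation test, p = 0.1 for each, the minimum for groups of 3, and 0.12 adjusted over 6 such pairs of related members).

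ETS1 and ETS2, close relatives whose activity rises when ERK phosphorylates a threonine near their pointed domain, did not pass the threshold. ETS1 stood at 3.76, 3.82 and 3.15 in the PD98059 arrays, against 4.18, 4.14 and 4.17 in the DMSO arrays. Every treated array was lower, and replicate 3 lay below the background level, while the DMSO arrays lay close together. The log2 fold change was −0.59 (95% interval −1.0 to −0.17), with an unadjusted p of 0.0127 and an adjusted p = 0.128. Without PD98059 replicate 3 the log2 fold change was −0.37 (adjusted p = 0.0792), and over the alternatives that tested it the adjusted p ran from 0.0652 to 0.276.

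ETS2 stood at 4.24, 4.43 and 4.20 in the PD98059 arrays and at 4.46, 4.45 and 4.27 in the DMSO arrays. The treatments overlapped, with a log2 fold change of −0.10 (95% interval −0.33 to 0.12, adjusted p = 0.606).

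ETV6, a repressor that forms polymers through its pointed domain, stood at 8.74, 8.81 and 8.72 in the PD98059 arrays, against 8.88, 8.86 and 8.90 in the DMSO arrays. The arrays did not overlap, but the difference was small, −0.12 (95% interval −0.27 to 0.03, adjusted p = 0.348). ERG, a factor of endothelial cells, stood at 2.28, 2.35 and 2.45 in the PD98059 arrays and at 2.33, 2.66 and 2.24 in the DMSO arrays. All of these were near background, and the log2 fold change of −0.05 (adjusted p = 0.867) carries no information on a transcript that was not measured above it. Of 9 endothelial markers found on the array 6 were likewise near background, among them PECAM1, KDR, TEK and TIE1. The other 3 had mean levels above it, CLDN5 at 5.44, VWF at 5.11 and ESAM at 3.98.

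PD98059 replicate 3 was the lowest of the 3 treated arrays in 7 of the 10 members, against 31.4% of all clusters, with ETV5, ELK4 and ERG as the exceptions. Without it the calls held for ETV1 at −1.27 (adjusted p = 0.0183), for ETV5 at −1.3 (adjusted p = 0.0381) and for ELK3 at −0.68 (adjusted p = 0.0278).

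**Figure D2:**
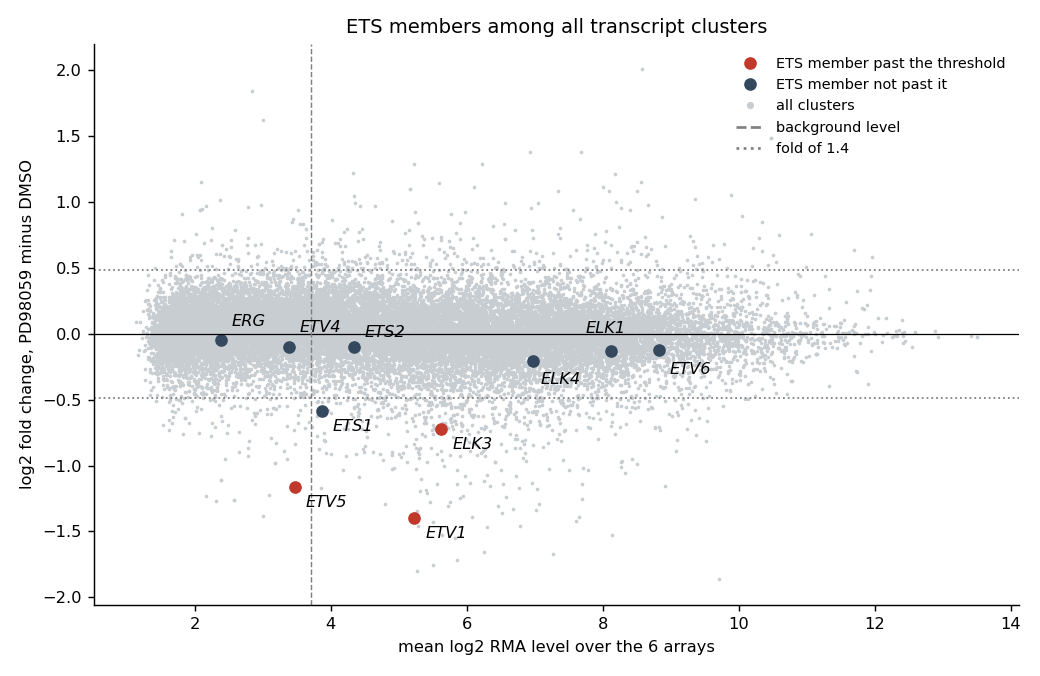
Log2 fold change, PD98059 minus DMSO (vertical axis), against the mean log2 RMA level over the 6 arrays (horizontal axis) for all 24415 clusters, with the 10 ETS members marked. ETV1 at −1.4 and ETV5 at −1.16 lie at the lower edge of the cloud, and ETV4, ETV5 and ERG lie left of the background level.

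Of the other 18 genes of the ETS family 17 were found by symbol, and none of them passed the threshold in either direction. At an unadjusted p under 0.05, limma gave 3 and the unmoderated test also gave 3. Such limma values were common: FLRT3, a reported ETS target just under this limit, ranked 4633 of 24415 clusters by p. The limma count of 3 therefore does not set these 17 genes apart from all clusters. Their log2 fold changes ran from −0.62 to 0.35, with 8 below 0 and 9 above, and a median of 0.01. Among these 17, 9 had mean levels near background, such as the leukocyte factor SPI1, the endothelial FLI1 and the epithelial factors ELF3, ELF5 and EHF. The 4 with the highest levels were the GABPA subunit of the GA-binding protein at −0.06, ELF2 at 0.21, ELF1 at 0.01 and the repressor ETV3 at −0.17, and the sign for ELF1 turned when the arrays were centred on their medians (−0.03).

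ELF4, singled out after its values were seen, had the lowest fold change of these 17. It stood at 5.88, 6.30 and 5.61 in the PD98059 arrays, against 6.58, 6.63 and 6.44 in the DMSO arrays, with no overlap. The log2 fold change was −0.62 (standard error 0.17, adjusted p = 0.104), and it passed when PD98059 replicate 2 was left out (−0.81, adjusted p = 0.041). ELF2 was the reverse case, at 8.04, 8.09 and 8.14 in the PD98059 arrays, against 7.89, 7.85 and 7.90 in the DMSO arrays, and did not pass either (adjusted p = 0.136).

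**Figure D3:**
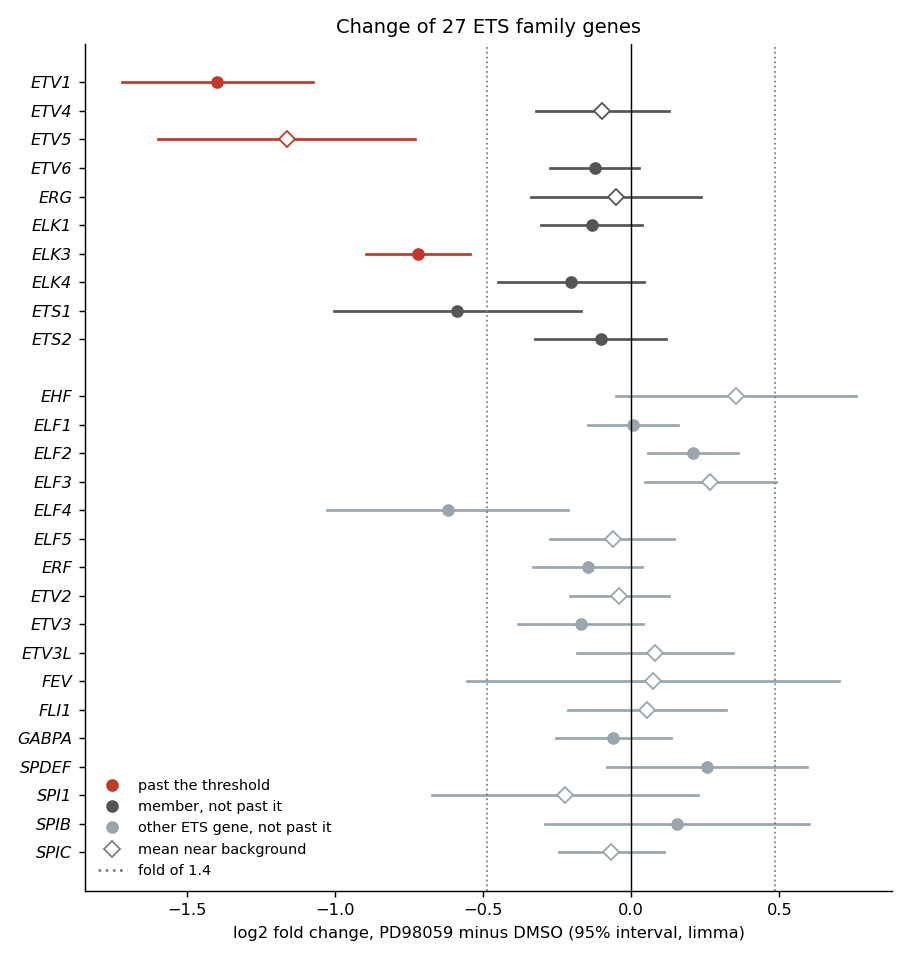
Log2 fold change, PD98059 minus DMSO, with its 95% interval from limma (horizontal axis), for the 10 ETS members above and the other 17 ETS genes found below. Open diamonds mark genes whose mean was near background, and only ETV1, ETV5 and ELK3 passed the threshold, all on the lower side.

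The transcripts of ETS partners and regulators gave no call. Of 23 listed genes 21 were found and none was called on either side. Their log2 fold changes lay between −0.21 and 0.28 with a median of −0.003. At an unadjusted p under 0.05, limma gave 3 and the unmoderated test 7. As for the other ETS genes, the limma count does not set this list apart from all clusters. The share of all clusters under this limit with the unmoderated test is not given here. SRF, the DNA-binding partner of the ELK proteins, stood at 6.90, 7.15 and 7.03 in the PD98059 arrays and at 7.11, 7.14 and 7.23 in the DMSO arrays. The ubiquitin ligase subunit DDB1 had 0.02 (−0.02 with the arrays centred on their medians), the deubiquitinase USP9X 0.23, the SUMO ligase PIAS2 0.07 and the MEK2 gene MAP2K2 −0.20, the 4 named from this list by level. CIC, the repressor that holds the PEA3 genes silent in human cells with low ERK activity, stood at 5.65, 5.73 and 5.69 in the PD98059 arrays and at 5.73, 5.64 and 5.71 in the DMSO arrays. That gene was named after its values were seen.

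Genes that ETS factors are reported to drive in human or mouse cells included 9 that passed on the lower side and 1 on the higher side. All 33 on this list were found, and 23 did not pass. The lower calls made up 27.3% of the list, against 1.78% of all clusters on the lower side and 0.909% on the higher side. Of the list 29 genes were above the background level, where 2.72% of clusters passed on the lower side. The list had a median log2 fold change of −0.41 against 0.01 over all clusters. It was chosen with earlier results of these data known, so these contrasts are a description only. The list holds feedback inhibitors and immediate early genes that ERK also reaches through other factors, and the members' part in these values was not tested. PLAUR, the receptor of urokinase, stood at 7.21, 7.51 and 7.4 in the PD98059 arrays, against 8.86, 8.97 and 8.86 in the DMSO arrays, without overlap. Its fall by 1.52 on the log2 scale (standard error 0.09, adjusted p = 0.00156) ranked 8 of 24415 in the order of falls.

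DUSP6, the phosphatase that inactivates ERK, stood at 4.75, 4.95 and 4.74 in the PD98059 arrays, against 6.12, 6.20 and 5.94 in the DMSO arrays. EGR1, a zinc finger factor whose promoter binds ELK proteins with SRF, stood at 7.0, 6.86 and 7.10 in the PD98059 arrays, against 8.0, 7.95 and 8.12 in the DMSO arrays. Both were lower in every treated array, by 2.42-fold for DUSP6 (adjusted p = 0.00269) and by 2.05-fold for EGR1 (adjusted p = 0.00323). The early response genes IER2 and IER3 had −0.74 and −0.55, and the feedback inhibitors SPRY2 and SPRED2 had −0.67 and −0.56. SPRY2 did not pass without PD98059 replicate 2 or any single DMSO array (adjusted p from 0.0587 to 0.0656), and SPRED2 passed only without DMSO replicate 1 among these fits (0.063 to 0.0743 in the others). The remaining lower calls were the AP-1 subunit JUNB at −0.55 and the ephrin receptor EPHA2 at −0.50. Among the fits that leave out 1 array, JUNB passed only without PD98059 replicate 2 and EPHA2 only without DMSO replicate 2. In the others the adjusted p-values ran up to 0.0879 for JUNB and 0.126 for EPHA2.

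PTHLH, which encodes parathyroid hormone-related protein and is driven by ETS1 in human cells, moved the other way. It stood at 7.63, 7.51 and 7.47 in the PD98059 arrays, against 6.37, 6.65 and 6.62 in the DMSO arrays, and the log2 fold change was 0.99 (standard error 0.10, adjusted p = 0.00477). Of those with high levels that did not pass, the survival factor MCL1 had −0.17, FLRT3 0.21, TGFBR2 −0.28 and the gelatinase MMP9 −0.73. MMP9 stood at 6.90, 7.72 and 6.61 in the PD98059 arrays and at 7.90, 7.89 and 7.64 in the DMSO arrays, and passed when the high PD98059 replicate 2 was left out (−1.05, adjusted p = 0.0328). Other reported ETS targets were near background in this culture, such as MMP3 and MMP13.

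**Figure D4:**
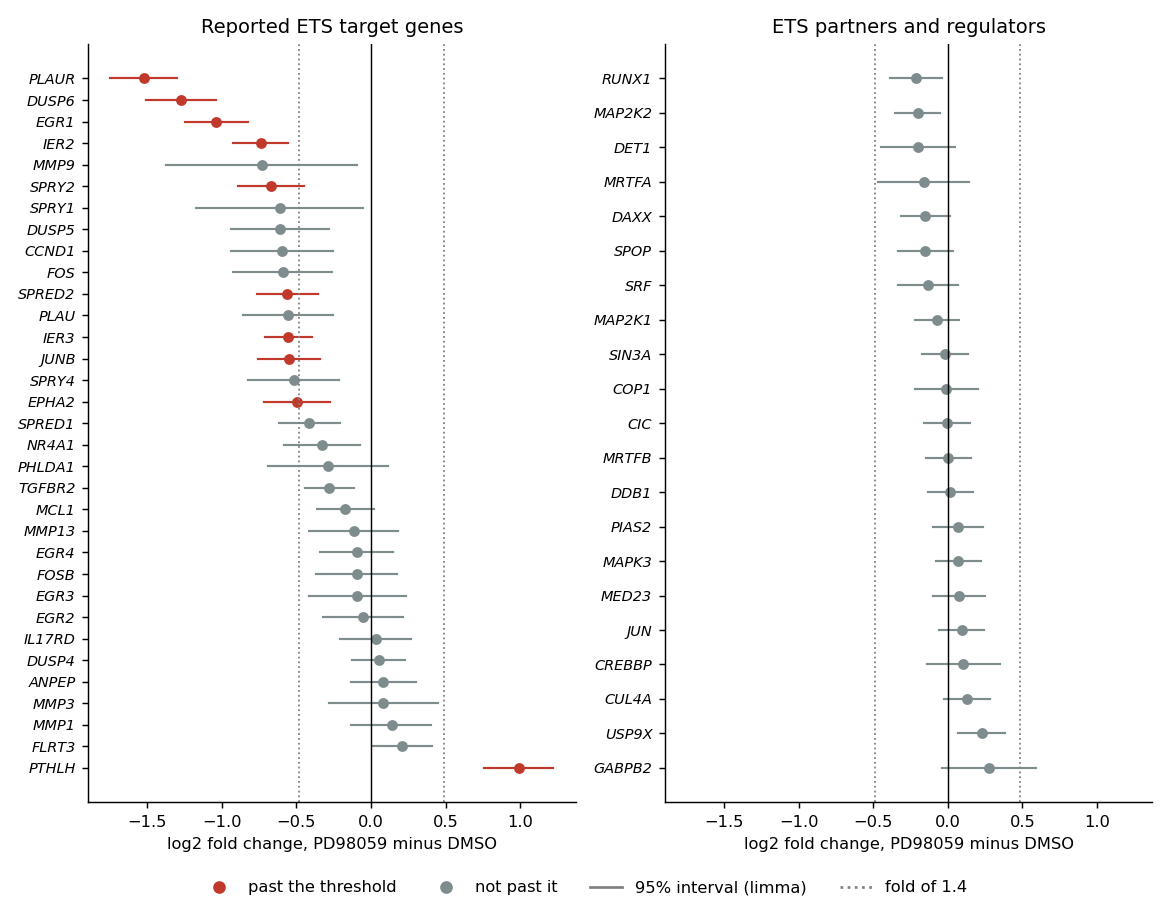
Log2 fold change, PD98059 minus DMSO, with its 95% interval from limma (horizontal axes), for 33 reported ETS target genes (left) and 21 ETS partners and regulators (right), each ordered by size. PLAUR, DUSP6 and EGR1 had the largest falls and PTHLH the only rise past the threshold on the left, and no gene passed on the right.

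Markers of other follicle cells were read beside these changes. Over all clusters 1.78% passed on the lower side and 0.909% on the higher side, and the counts below are a description only. Of 12 fibroblast and smooth muscle markers, 3 were lower and none higher with PD98059, PDGFRB at −0.81, CNN1 at −0.66 and PDGFRA at −0.59, and the other 9 did not pass. Among these, COL1A1 had −0.46 (adjusted p = 0.0464, under the fold limit), MYH11, a smooth muscle myosin, had 0.62 with every PD98059 array above every DMSO array (adjusted p = 0.0694), COL3A1 had 0.20, and the abundant POSTN, DCN and LUM had −0.03, −0.06 and −0.17. Summed on the linear scale, the levels of the 12 ran from 8591 to 9099 array units in the PD98059 arrays and from 9467 to 9594 in the DMSO arrays. The corresponding sum of the 12 granulosa markers ran from 13121 to 13339 with PD98059 and from 8014 to 8434 with DMSO, with 8 markers higher and none lower. The sum of 9 endothelial markers ran from 132 to 140 with PD98059 and from 140.3 to 149.5 with DMSO, with VWF, at −0.57, as its only call. Leukocyte markers gave no call among 10, with sums from 272 to 355 with PD98059 and from 274 to 293 with DMSO (1 had an unadjusted p under 0.05 with limma and none with the unmoderated test). Of 6 theca markers only INSL3 passed, at 0.61, with sums from 709.9 to 730.8 with PD98059 and from 528.1 to 550.5 with DMSO. INSL3 had the highest mean level of the 6, 8.56 against 6.94 for NR2F2, and so weighs most in this sum. PTCH1 had 0.39 (adjusted p = 0.0258 from limma, under the fold limit) and LHCGR 0.17, while NR2F2, CYP17A1 and GLI1 had −0.02, −0.07 and −0.08. The part of cell composition in the ETS values was not tested.

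**Figure D5:**
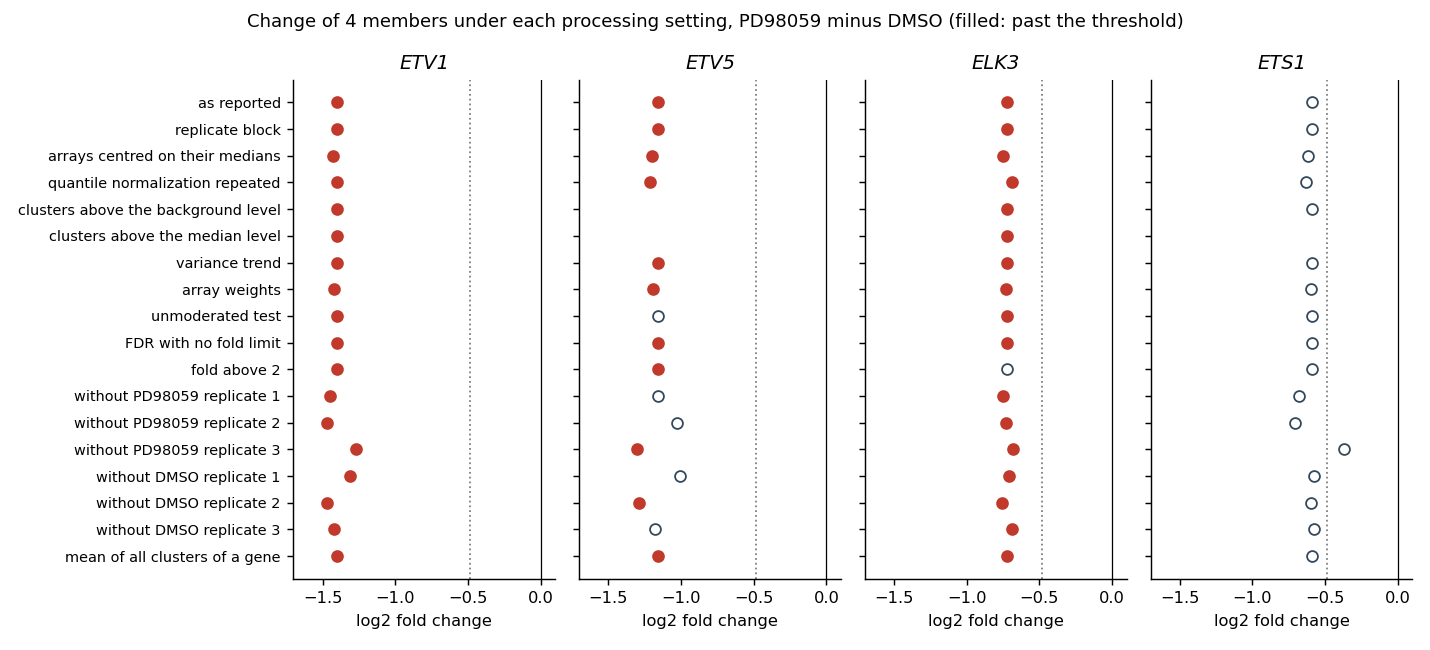
Log2 fold change, PD98059 minus DMSO (horizontal axes), of ETV1, ETV5, ELK3 and ETS1 as reported and under each alternative (a line each), filled where the gene passed the threshold, with the 1.4-fold limit dotted. ETV1 passed in all of them, ELK3 in all except the fold limit of 2, ETV5 was lost in 5 of those that tested it, and ETS1 passed in none.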

How the data were processed

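The members and lists were chosen with earlier results of these data known. The authors made the deposited log2 values, given with 2 decimals, by RMA in the Expression Console program, a method that removes background, equalizes the distributions of the arrays and fits 1 value per cluster. No genome build for the annotation is named in the sources used here. The series' value table equalled the deposited table in all 146490 cells. Columns were matched to samples by name, and 0 were left unmatched.

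Genes were found by the symbol in the table or, for listed genes without an own symbol, by RefSeq accessions looked up in ARS-UCD2.0. Where several clusters read a gene (MMP1 and GATA4) the one with the highest mean was used. The 6 arrays were fitted with limma 3.58.1 in R 4.3.3 (lmFit, eBayes; prior with 2.8 degrees of freedom), with treatment as the only factor, on all 24415 clusters without a filter. The methods name an ANOVA in other software, and an unmoderated test was run here as an alternative. At the same limits limma called 656 clusters, close to the number the paper reports, and the unmoderated test 350. Exact permutation tests used scipy 1.17.1. Simulated arrays with known changes were used to check the fit.

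The genes named are all members, the other ETS genes past the threshold and 4 more by level, up to 8 partners and targets past the threshold by size with 4 more by level, and the 3 clusters most like each member past the threshold. JUNB, EPHA2, ELF4, CIC, SRF and the marker genes were named besides. Precision is limited by the number of arrays, with a median standard error of 0.098 on the log2 scale. Alternatives were a block for the replicate number, median centring, repeated quantile normalization, filters at the background and median levels, a variance trend, array weights, the unmoderated test, other call limits, the mean of a gene's clusters, and leaving out each array. Sequences of the members were not used here, and 1 gene of the partner list is not reported here.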

Additional observations from a re-analysis of the deposited data

How the results depend on the processing

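Of the 10 members, 2 or 3 passed in every setting, always on the lower side: 2 without ETV5 (filters on dim clusters, which remove it, the unmoderated test, and 4 of the fits that leave out 1 array) or without ELK3 (fold limit of 2). With the replicate number as a block 3 members passed, ETV1, ETV5 and ELK3, with adjusted p-values of 0.0336, 0.0475 and 0.048. That block cut the calls over all clusters from 656 to 237 and those among targets from 10 to 4. Same-numbered arrays correlated in their deviations by 0.051, 0.037 and 0.037, and arrays of unlike number by −0.036 to −0.003. Each array thus correlated best with its own number, but weakly. Whether same-numbered cultures shared more than a number cannot be told from these values. Among targets the count was 15 with the background filter and with the variance trend, 14 with the median filter (FOS, DUSP5, CCND1 and PLAU joining in all 3), 6 with the unmoderated test, 3 at a fold limit of 2, and 6 to 9 without 1 array. Over all clusters it was 350 with the unmoderated test, 87 at a fold limit of 2, 1110 with no fold limit and 271 to 491 without 1 array. Among the other ETS genes 1, ELF4, passed with the median filter, the variance trend and without PD98059 replicate 2 (range 0 to 1 without 1 array). The partners stayed at 0 in all settings. Signs turned for genes close to 0 only: ERG at 0.07 without DMSO replicate 2 (−0.14 to 0.07 without 1 array), ELF1 at −0.03 after median centring (−0.01 to 0.03 without 1 array, below 0 without PD98059 replicate 2 or DMSO replicate 1), and DDB1 at −0.02 after median centring (−0.005 to 0.03 without 1 array, with −0.0033 without PD98059 replicate 3). The cause of these changes was not tested. Levels near background limit ETV4, ETV5 and ERG, and also ETS1, whose PD98059 mean of 3.58 lay under the background level.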

Other observations

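The clusters whose 6 values most resembled those of the 3 members past the threshold were sought among 12526 named clusters above the background level, by Pearson's r over the 6 arrays. Because both treatments enter this r, any gene with a clean difference between them scores high, and the values are a description. For ETV1 they were CGRRF1 (r = 0.9991), HTATIP2 (r = 0.9989) and LOC100847279 (r = 0.996), with log2 fold changes of −0.63, −0.57 and −0.35. For ETV5 they were CNOT11, a subunit of the mRNA deadenylase complex (r = 0.9974), the COPII coat protein gene SEC24A (r = 0.996) and the microtubule protein gene MAP1B (r = 0.9946), none of which passed the threshold (log2 fold changes −0.15, −0.27 and −0.17). For ELK3 they were the fatty acid elongase ELOVL1 (r = 0.9988), the cystine transporter SLC7A11 (r = 0.9982) and ARFGAP1 (r = 0.9982), of which SLC7A11 passed at −0.84 (adjusted p = 0.00357 from limma).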
